A study of Mus musculus with 12 samples.

Results

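The suppressors of cytokine signalling were followed here in interscapular brown adipose tissue of mice, together with 2 transcription factors of the pathway they inhibit. The members were named one by one. They are the 8 genes of the SOCS family (Cish and Socs1 to Socs7), Stat3 and Stat5b, 10 genes of the 53379 gene identifiers counted in each library. Socs2 was selected on its measured rise in cold mice with the deletion. Its values in mice with the deletion are therefore a description without a test. Counts of members that passed a test are over the other 9. All 10 members passed the filter on low counts.

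RNA was sequenced from 4 groups of 3 libraries. They are Cdk7 bKO mice after 6 h of cold exposure with food (cold KO), wild-type mice after the same exposure (cold WT), Cdk7 bKO mice at room temperature (KO at RT) and wild-type mice at room temperature (WT at RT). The wild-type mice were littermates without the deletion, and all animals were C57BL/6, 12 weeks old, and killed at zeitgeber time 9. Each library held RNA of 2 mice of 1 group, 250 ng from each, so a replicate is a pool and the spread between single mice is not seen. Cdk7 encodes a cyclin-dependent kinase that works in the general transcription factor TFIIH. The driver of the deletion, the deleted exons, the sex of the mice and the temperature of the cold are not given in the sources used here.

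SOCS proteins are the classical negative feedback of cytokine and growth hormone signalling. Hormone or cytokine binding activates Janus kinases at the receptor, the kinases phosphorylate STAT factors, and the STATs enter the nucleus and induce, among other genes, Cish, Socs1, Socs2 and Socs3, whose proteins then bind the receptor or the kinase and pass bound proteins to a ubiquitin ligase through their SOCS box. Socs4 to Socs7 are less studied and are linked mainly to receptor tyrosine kinases and insulin receptor substrates. In fat, growth hormone signals mainly through JAK2 and the STAT5 pair, and the interleukin-6 family mainly through STAT3.

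STAT factors bind a palindrome, TTCNNNGAA, where N is any base. The motif is its own reverse complement, so 1 search covers both strands. Windows from 250 bases before to 50 bases after a gene's start, taken from RefSeq on GRCm38.p6, were given for 6 members (Cish, Socs1, Socs3, Socs4, Stat3 and Stat5b). Of these, 2 held the motif. Among all 32851 such windows 8.3% held it at least once and 0.457% held it 2 or more times. The sequences with a match are shown because they belong to the members known for STAT feedback. They run 5′ to 3′ on the gene's strand, and capitals mark the motif.
Cish promoter, chr9:107296409-107296678, plus strand: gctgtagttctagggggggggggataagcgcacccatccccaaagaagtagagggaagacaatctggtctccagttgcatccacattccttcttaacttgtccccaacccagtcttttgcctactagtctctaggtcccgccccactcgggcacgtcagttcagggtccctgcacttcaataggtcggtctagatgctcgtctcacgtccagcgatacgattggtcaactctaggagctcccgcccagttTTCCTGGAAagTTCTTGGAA
Socs3 promoter, chr11:117969367-117969616, minus strand: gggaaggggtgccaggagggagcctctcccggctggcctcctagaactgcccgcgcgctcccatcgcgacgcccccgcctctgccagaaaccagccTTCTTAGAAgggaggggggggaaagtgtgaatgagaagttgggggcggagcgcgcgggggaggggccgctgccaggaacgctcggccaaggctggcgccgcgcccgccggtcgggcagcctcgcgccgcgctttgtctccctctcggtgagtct
The Cish sequence had 2 matches. TTCCTGGAA began at the first transcribed base of the RefSeq gene (107296659 to 107296667) and TTCTTGGAA lay just behind it (107296670 to 107296678). The single match of Socs3, TTCTTAGAA, began 154 bases before the RefSeq start (117969512 to 117969520). The gene positions given below come from another annotation, GENCODE, with other starts. There Cish starts at 107296026 and Socs3, on the minus strand, at 117970047, so each match lies inside the gene. No match in the windows of Socs1, Socs4, Stat3 and Stat5b says only that these letters were not there.

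The libraries held 27609717 to 36792555 reads counted in genes, and within a group the pools correlated at 0.976 to 0.991 over genes. Cdk7 itself (chromosome 13, 100702631 to 100730939, GRCm38, minus strand) was at 5.39, 4.85 and 5.39 CPM (read counts scaled to library size, with TMM factors) in cold KO pools, against 18.0, 16.1 and 15.7 CPM in cold WT pools, and at 4.35, 5.15 and 5.77 CPM in KO pools at RT, against 16.4, 15.1 and 16.1 CPM in WT pools at RT. It was 3.18-fold and 3.13-fold lower in KO, with adjusted p of 2e-08 in the cold and 3.8e-08 at RT. The 8 brown adipocyte markers, Ucp1 among them, were detected in every group. Their summed level was 13300 to 14300 CPM in cold KO, 26300 to 29100 CPM in cold WT, 12300 to 15200 CPM in KO at RT and 18500 to 20900 CPM in WT at RT. The median marker differed less than Ucp1 did, with log2 values for KO against WT of -0.31 and -1.98 in the cold and -0.39 and -0.88 at RT, and in WT in the cold 1 marker rose and 3 fell. The 11 macrophage markers summed to 271 to 374 CPM in cold KO against 104 to 108 CPM in cold WT, and to 234 to 301 CPM in KO at RT against 74.9 to 98.3 CPM in WT at RT, with 10 of 11 higher in KO in the cold and 9 of 11 at RT. Of 8 endothelial markers 5 were higher and 1 lower in KO in the cold, and 6 were higher at RT. Of 6 smooth muscle and pericyte markers 5 were higher in the cold, with 4 higher and 1 lower at RT, and of 7 fibroblast markers 4 were higher in the cold and 2 at RT. Of all genes tested, 25.9% were higher and 27.8% lower in KO in the cold, and 19.3% and 21% at RT. In WT, 23% of all genes rose and 23.2% fell in the cold. Skeletal muscle markers stood apart in 2 libraries, KO at RT replicate 6 (1410 CPM in sum) and WT at RT replicate 2 (1090 CPM), with 39.8 to 497 CPM in the other 10. In such tissue RNA, fewer cells of a type and less RNA per cell cannot be told apart.

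Levels of different genes were compared per kilobase of exons. Cish had the highest mean over the 12 libraries, 11.2 CPM per kb, followed by Stat5b at 6.52, Stat3 at 5.45, Socs4 at 4.52, Socs5 at 3.71, Socs7 at 3.26, Socs2 at 2.56 and Socs6 at 1.78 CPM per kb. Socs3 averaged 0.647 and Socs1 0.145 CPM per kb. The 2 members best known for inhibiting Janus kinases were thus the least abundant, with 23 to 109 reads per library for Socs3 and 5 to 36 for Socs1. Socs2 varied most over the libraries, 10.2-fold between the highest and the lowest pool, followed by Cish at 7.11-fold. Socs7, Socs6 and Stat3 varied least, at 1.78-, 1.83- and 1.86-fold.

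**Figure D1:**
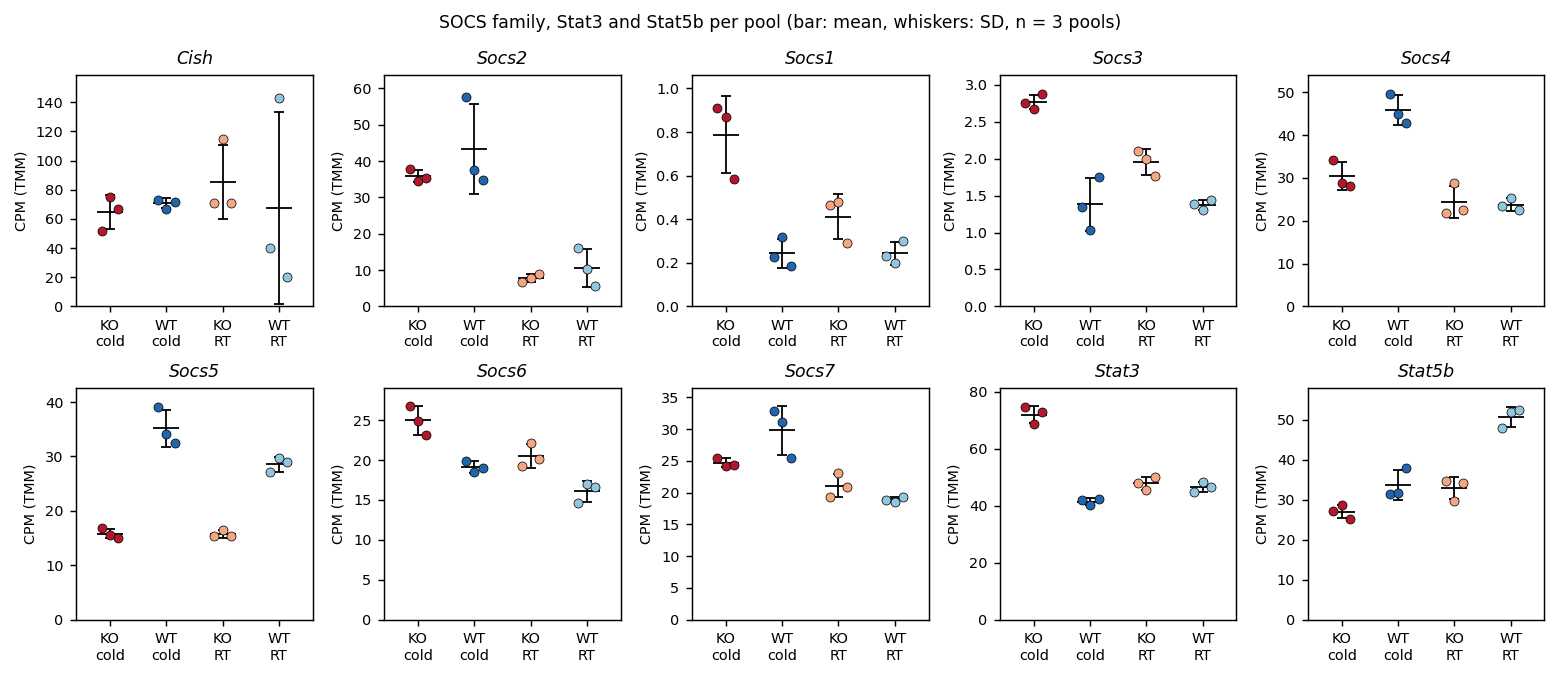
Level of each of the 10 members in every pool, in TMM-normalised CPM on linear axes from 0, in cold KO, cold WT, KO at RT and WT at RT. Points are pools of 2 mice, bars are means and whiskers SD (n = 3). Socs5 is lower in both KO groups, Stat3 is high in cold KO, and Socs2 is high in both cold groups.

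In the cold, 8 of the 9 members differed between KO and WT, 4 higher in KO (Socs1, Socs3, Socs6, Stat3) and 4 lower (Socs4, Socs5, Socs7, Stat5b). Of all 15208 genes tested, 53.7% were called in that comparison, 25.9% higher and 27.8% lower. The KO and WT pools did not overlap for 8 of the 9, against 62.7% of all genes. For Socs7 the gap was minimal, as the nearest KO and WT pools both rounded to 25.5 CPM. At RT 3 of the 9 differed, Socs6 higher and Socs5 and Stat5b lower, where 40.4% of all genes were called, 19.3% higher and 21% lower, and 4 of the 9 did not overlap, against 48.8% of all genes. The median log2 fold change of the 9 members was -0.13 in the cold and 0.16 at RT, against 0.012 and 0.003 for all genes. The split of 4 and 4 was lost without composition scaling. With library totals alone, which shifted the median of all genes in the cold to 0.449, 4 of the 9 were higher and 1 was lower. In that setting 7881 of 15208 genes were higher and 1073 lower. With the median-ratio size factors of DESeq2 the split stayed at 4 and 4, against 3946 and 4187 of all genes.

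Cold exposure moved 5 of the 9 members in WT, 4 upward (Socs4, Socs5, Socs6, Socs7) and Stat5b downward, where 46.3% of all genes were called, 23% higher and 23.2% lower. Cold and RT pools of WT did not overlap for 6 of the 9, against 55.4% of all genes. With library totals alone 2 of the 9 were higher and 2 lower in WT in the cold, against 1826 and 4813 of 15208 genes. In KO it moved 2, Socs6 and Stat3, both upward, where 14.8% of all genes were called, 7.29% higher and 7.56% lower, and 6 of the 9 did not overlap, against 32.8% of all genes. The cold responses themselves differed between KO and WT for 3 members, Stat3, Socs4 and Socs7, where 23.5% of all genes differed, 10.6% upward and 12.9% downward. The KO and WT comparisons share pools with the cold comparisons, so these counts are not independent of each other.

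**Figure D2:**
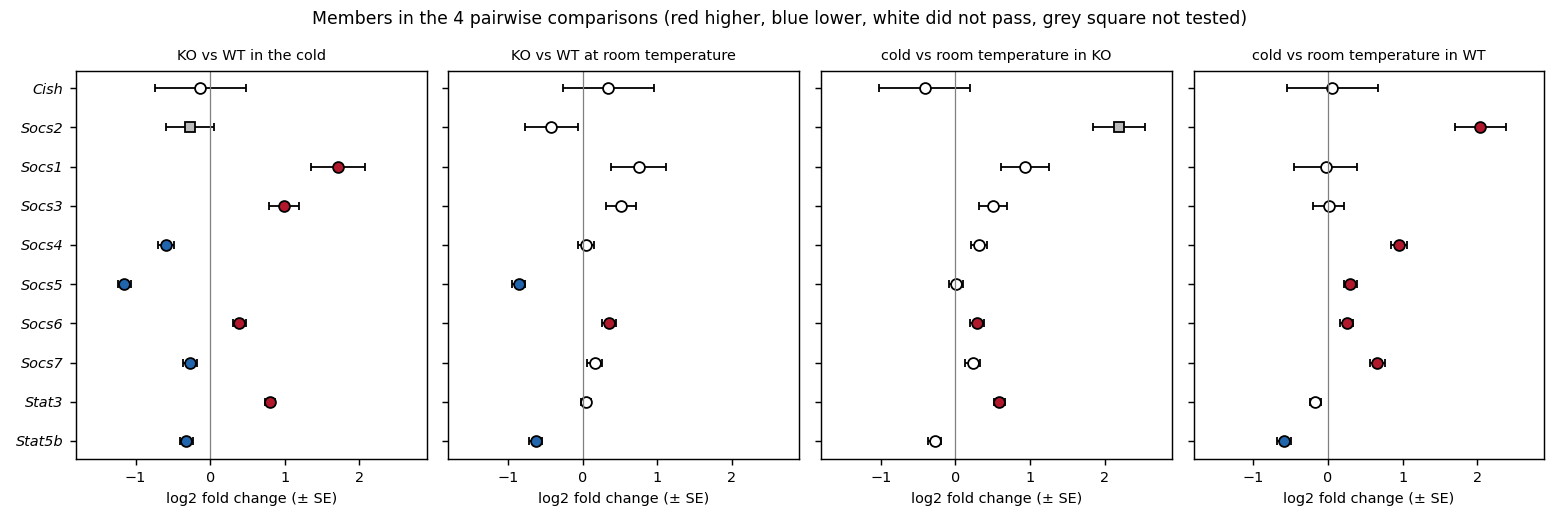
log2 fold changes of the 10 members with SE in each comparison, with filled points for members past an adjusted p of 0.05. Socs2 was not tested in the comparisons that hold cold KO, and its open point for KO against WT at RT is not read as a test. In KO against WT in the cold, Socs1 is farthest to the right at 1.71 and Socs5 farthest to the left at -1.15.

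Socs2, the feedback inhibitor of growth hormone signalling whose loss gives giant mice, was strongly cold-responsive (chromosome 10, 95385362 to 95417180, minus strand). Its level was 37.7, 34.6 and 35.3 CPM in cold KO pools, against 57.6, 37.6 and 34.8 CPM in cold WT pools, and 6.79, 7.91 and 8.97 CPM in KO pools at RT, against 16.0, 10.2 and 5.64 CPM in WT pools at RT. Every cold pool lay above every RT pool, and KO and WT overlapped at both temperatures. The stated choice of Socs2 names its rise in KO, but the members were chosen with earlier results of these data known. The test in WT may therefore not be independent of that choice. In WT, Socs2 rose 4.13-fold in the cold (log2 2.04 ± 0.34, SE, adjusted p = 0.0012). In KO it was 4.56-fold higher in the cold than at RT (log2 2.19 ± 0.35), given without a test. At RT the log2 value of KO against WT was -0.42 ± 0.35. Without WT at RT replicate 3 it was -0.74, and without the filter on low counts -0.44. These are given without a test, since its choice may have used the pools of KO at RT. In the cold the KO mean was 0.828 of the WT mean (log2 -0.27 ± 0.32), and the cold response of KO minus that of WT was 0.14 ± 0.48 on the log2 scale, both given without a test.

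Cish, the founding member of the family and a STAT5 target, is on chromosome 9 (107296026 to 107302784, plus strand). It had 51.8, 75.2 and 66.9 CPM in cold KO pools, against 73.2, 66.7 and 71.9 CPM in cold WT pools, and 70.8, 115 and 70.7 CPM in KO pools at RT, against 40.1, 143 and 20.1 CPM in WT pools at RT. The WT pools at RT thus spanned 7.11-fold, and every pair of groups overlapped. Cish passed in none of the 5 tests after the filter on low counts, with log2 values of -0.13 ± 0.61 for KO against WT in the cold (adjusted p = 0.88) and 0.34 ± 0.61 at RT (adjusted p = 0.7). The high pool was WT at RT replicate 2, one of the 2 libraries rich in muscle RNA. Without it Cish was higher in KO at RT (log2 1.51, adjusted p = 0.014) and rose in WT in the cold (log2 1.24, adjusted p = 0.024), and the cold responses differed (log2 -1.64, adjusted p = 0.043). Its part in the result beyond these values was not tested. Without the filter on low counts Cish passed at RT (log2 0.32, adjusted p = 0.01), for the cold in KO (log2 -0.39, adjusted p = 0.0028) and for the difference between responses (log2 -0.42, adjusted p = 0.027). With the filter these log2 values were 0.34, -0.41 and -0.47. The reads of Cish, with their wide spread in WT at RT, were the same in both fits, and what lowered the adjusted p was not tested. Exons of Gm17040 and Gm17041 overlap Cish on the opposite strand.

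Socs1 and Socs3 inhibit Janus kinase activity directly, Socs1 mainly in interferon signalling and Socs3 at gp130, the shared receptor chain of the interleukin-6 family, and at the leptin receptor. Both were higher in cold KO than in cold WT. Socs3 (chromosome 11, 117966079 to 117970047, minus strand) had 2.76, 2.68 and 2.87 CPM in cold KO pools, against 1.35, 1.04 and 1.75 CPM in cold WT pools, a 1.99-fold difference (log2 0.99 ± 0.20, adjusted p = 0.00062). At RT it had 2.11, 2.0 and 1.76 CPM in KO pools, against 1.38, 1.31 and 1.44 CPM in WT pools. The groups did not overlap at RT either, but the test did not pass (log2 0.51 ± 0.20, adjusted p = 0.054). It passed without WT cold replicate 2 (adjusted p = 0.046) or 3 (adjusted p = 0.042), under the strict filter (adjusted p = 0.033) and with library totals alone (log2 0.72, adjusted p = 0.014).

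Socs1 (chromosome 16, 10782240 to 10785536, minus strand) had 0.91, 0.868 and 0.586 CPM in cold KO pools, against 0.225, 0.318 and 0.186 CPM in cold WT pools. That 3.27-fold difference was the largest among the 9 members in the cold (log2 1.71 ± 0.36, adjusted p = 0.00083). At RT it had 0.465, 0.477 and 0.293 CPM in KO pools, against 0.23, 0.199 and 0.3 CPM in WT pools, which overlapped (log2 0.75 ± 0.37, adjusted p = 0.12). The test of the cold response in WT passed for neither gene, with log2 values of -0.03 ± 0.42 for Socs1 (adjusted p = 0.96) and 0.01 ± 0.21 for Socs3 (adjusted p = 0.97). In KO the values were 0.93 ± 0.32 for Socs1 (adjusted p = 0.057, and 0.044 without KO cold replicate 3) and 0.50 ± 0.19 for Socs3 (adjusted p = 0.091), with adjusted p of 0.21 and 0.24 for the difference between the responses of KO and WT. Cold KO stood above every other group for both genes, and KO at RT overlapped cold WT for Socs1 but not for Socs3. For Socs3 that gap was minimal, with the nearest pools at 1.76 CPM in KO at RT and 1.75 CPM in cold WT. In KO against WT the macrophage sum given above moved in the same direction as Socs1 and Socs3. So did the sum of the 8 T cell markers, 7 of which were tested. It was 7.59 to 7.84 CPM in cold KO, 1.68 to 3.61 CPM in cold WT, 5.17 to 8.28 CPM in KO at RT and 2.3 to 3.54 CPM in WT at RT. Sums of smooth muscle and pericyte, endothelial and B cell markers were also higher in KO at both temperatures. Those of fibroblast, neutrophil and skeletal muscle markers overlapped in the cold, and the brown adipocyte sum was lower. Between cold KO and KO at RT the macrophage sums overlapped, as the T cell sums did, while Socs1 and Socs3 did not. The part of these cells in the result was not tested.

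Socs5, linked to epidermal growth factor and interleukin-4 receptors, was the member farthest below WT in KO. It is on chromosome 17 (87107679 to 87137839, plus strand) and had 16.8, 15.6 and 15.1 CPM in cold KO pools, against 39.0, 34.2 and 32.4 CPM in cold WT pools. At RT the values were 15.4, 16.5 and 15.3 CPM in KO pools, against 27.1, 29.7 and 28.9 CPM in WT pools. All 6 KO pools lay below all 6 WT pools, and the 2 KO groups overlapped each other. KO was 2.22-fold lower in the cold (log2 -1.15 ± 0.09, adjusted p = 5.7e-08) and 1.82-fold lower at RT (log2 -0.86 ± 0.09, adjusted p = 2e-06). Both calls were kept under each alternative. The test placed 4 of the 8 brown adipocyte markers below WT in cold KO and 6 in KO at RT (27.8% and 21% of all genes). The part of these markers in the fall of Socs5 and of Stat5b was not tested. In WT the gene rose 1.23-fold in the cold (log2 0.30 ± 0.09, adjusted p = 0.0094), a call that ended with library totals alone (log2 0.10, adjusted p = 0.52) and without WT cold replicate 1 (log2 0.22, adjusted p = 0.064). In KO the value was 0.01 ± 0.09 (adjusted p = 0.95), and the test of the difference between the responses did not pass (log2 -0.29 ± 0.13, adjusted p = 0.1).

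Socs4, the closest relative of Socs5, behaved otherwise. Its level (chromosome 14, 47276931 to 47296102, plus strand) was 34.2, 28.8 and 28.2 CPM in cold KO pools, against 49.6, 44.8 and 42.9 CPM in cold WT pools, and 21.9, 28.7 and 22.5 CPM in KO pools at RT, against 23.5, 25.3 and 22.5 CPM in WT pools at RT. Cold WT stood above every other group. Socs4 rose 1.93-fold in WT in the cold (log2 0.95 ± 0.11, adjusted p = 3e-06), while KO gave 0.32 ± 0.11 (adjusted p = 0.056, and 0.0077 without KO at RT replicate 5), and these responses differed by -0.63 ± 0.15 (adjusted p = 0.0075). KO was lower than WT in the cold (log2 -0.59 ± 0.11, adjusted p = 0.00023), and the test at RT did not pass (log2 0.04 ± 0.11, adjusted p = 0.82). With library totals alone the cold difference was -0.15 (adjusted p = 0.36) and the difference between responses -0.40 (adjusted p = 0.16).

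Socs6 and Socs7 are the pair that binds insulin receptor substrates. Socs7 (chromosome 11, 97362551 to 97398542, plus strand) had 25.5, 24.2 and 24.4 CPM in cold KO pools, against 32.9, 31.1 and 25.5 CPM in cold WT pools, and 19.4, 23.1 and 20.9 CPM in KO pools at RT, against 18.9, 18.5 and 19.4 CPM in WT pools at RT. It rose 1.58-fold in WT in the cold (log2 0.66 ± 0.10, adjusted p = 4e-05), with 0.23 ± 0.10 in KO (adjusted p = 0.13). The 2 responses differed by -0.43 ± 0.14 (adjusted p = 0.031), a call that ended under 11 of 20 alternatives. Among them were leaving out WT at RT replicate 2 or 3, KO at RT replicate 5 or 6, WT cold replicate 1 or 2, and KO cold replicate 2 or 3, with adjusted p of 0.054 to 0.092. KO was 1.21-fold lower in the cold (log2 -0.27 ± 0.10, adjusted p = 0.025), but the call was fragile. It ended without WT cold replicate 1 (adjusted p = 0.13) or 2 (0.098) and without KO cold replicate 2 (0.073) or 3 (0.058), and with library totals alone the sign turned (log2 0.17, adjusted p = 0.26).

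Socs6 (chromosome 18, 88665224 to 88927481, minus strand) was higher in KO at both temperatures. It had 26.8, 24.9 and 23.2 CPM in cold KO pools, against 19.9, 18.5 and 19.0 CPM in cold WT pools, and 19.3, 22.2 and 20.1 CPM in KO pools at RT, against 14.6, 17.0 and 16.6 CPM in WT pools at RT. The groups did not overlap at either temperature. KO exceeded WT 1.31-fold in the cold (log2 0.39 ± 0.09, adjusted p = 0.0021) and 1.27-fold at RT (log2 0.35 ± 0.09, adjusted p = 0.0062), and both calls were kept under each alternative. Cold raised Socs6 1.19-fold in WT (log2 0.25 ± 0.09, adjusted p = 0.035) and 1.22-fold in KO (log2 0.29 ± 0.09, adjusted p = 0.043). Both calls were fragile. The one in WT ended in 9 of 22 alternatives, with library totals alone at 0.05 (adjusted p = 0.79) and without WT at RT replicate 1 or 3 or any one of the WT cold pools (adjusted p of 0.051 to 0.13). The one in KO ended in 9 of 21, among them leaving out WT at RT replicate 2, KO at RT replicate 4 or 6, or KO cold replicate 1 or 2 (adjusted p of 0.053 to 0.18).

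Stat3, the transcription factor of the interleukin-6 family and of leptin, was raised by cold in KO, and its response there differed from that in WT. The gene (chromosome 11, 100885098 to 100939540, minus strand) had 74.5, 68.6 and 72.8 CPM in cold KO pools, against 41.9, 40.1 and 42.3 CPM in cold WT pools, and 48.0, 45.4 and 50.1 CPM in KO pools at RT, against 44.8, 48.3 and 46.6 CPM in WT pools at RT. Cold KO stood above the other 3 groups, which lay between 40.1 and 50.1 CPM. KO was 1.74-fold higher than WT in the cold (log2 0.80 ± 0.07, adjusted p = 3.4e-07), and the test at RT did not pass (log2 0.04 ± 0.07, adjusted p = 0.71). The cold raised Stat3 1.5-fold in KO (log2 0.59 ± 0.07, adjusted p = 5.5e-05) and gave -0.17 ± 0.07 in WT (adjusted p = 0.071). The responses differed by 0.76 ± 0.10 (adjusted p = 0.00015), and this call was kept under each alternative. An exon of Stat5a overlaps Stat3 on the opposite strand, so the counts of both are uncertain as far as reads are split there.

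Stat5b and its neighbour Stat5a carry the growth hormone signal. Stat5b (chromosome 11, 100780731 to 100850724, minus strand) had 27.2, 28.6 and 25.3 CPM in cold KO pools, against 31.4, 31.7 and 38.0 CPM in cold WT pools, and 34.6, 29.7 and 34.3 CPM in KO pools at RT, against 47.9, 52.0 and 52.5 CPM in WT pools at RT. WT at RT was highest and cold KO lowest. KO was 1.55-fold lower at RT (log2 -0.63 ± 0.09, adjusted p = 6.2e-05) and 1.25-fold lower in the cold (log2 -0.32 ± 0.09, adjusted p = 0.0087). The cold value ended as a call without WT cold replicate 3 (log2 -0.22, adjusted p = 0.074) and turned to 0.12 with library totals alone (adjusted p = 0.41). In WT the cold lowered Stat5b 1.51-fold (log2 -0.59 ± 0.09, adjusted p = 6.8e-05), and in KO the value was -0.28 ± 0.09 (adjusted p = 0.051, and 0.022 without KO at RT replicate 5). The difference between the responses was 0.31 ± 0.13 (adjusted p = 0.099), and 0.42 without WT cold replicate 3 (adjusted p = 0.031).

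Stat5a was likewise highest in WT at RT and lowest in cold KO, and its steps were larger. It had 15.5, 17.8 and 15.1 CPM in cold KO pools, against 20.2, 24.7 and 32.4 CPM in cold WT pools, and 32.9, 18.3 and 27.1 CPM in KO pools at RT, against 52.8, 61.0 and 71.0 CPM in WT pools at RT. KO was 2.36-fold lower at RT (log2 -1.24 ± 0.22, adjusted p = 0.0015) and 1.59-fold lower in the cold (log2 -0.67 ± 0.23, adjusted p = 0.028), and the cold lowered it 2.39-fold in WT (log2 -1.26 ± 0.22, adjusted p = 0.001). The call in the cold ended under 6 of 22 alternatives, with library totals alone (log2 -0.23, adjusted p = 0.4), without the 2 muscle-rich libraries (adjusted p = 0.06), without WT cold replicate 2 (0.055) or 3 (0.098) and without KO cold replicate 1 (0.083) or 3 (0.085).

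The growth hormone receptor, Ghr, went in opposite directions at the 2 temperatures. It had 209, 192 and 161 CPM in cold KO pools, against 130, 132 and 143 CPM in cold WT pools, and 177, 148 and 145 CPM in KO pools at RT, against 218, 206 and 232 CPM in WT pools at RT. KO was 1.39-fold higher in the cold (log2 0.47 ± 0.10, adjusted p = 0.0011) and 1.39-fold lower at RT (log2 -0.48 ± 0.10, adjusted p = 0.0016, ending with library totals alone at -0.26 and adjusted p = 0.11). In WT the cold lowered Ghr 1.62-fold (log2 -0.70 ± 0.10, adjusted p = 3.9e-05), in KO the value was 0.25 ± 0.10 (adjusted p = 0.11, and 0.043 without KO at RT replicate 4 or 0.034 without KO cold replicate 3), and the responses differed by 0.95 ± 0.15 (adjusted p = 0.00035). Its kinase Jak2 had 22.9, 23.5 and 27.6 CPM in cold KO pools, against 18.6, 16.2 and 20.5 CPM in cold WT pools, and was higher in KO in the cold (log2 0.42 ± 0.11, adjusted p = 0.0047) but not at RT (log2 -0.14 ± 0.11, adjusted p = 0.31). In WT the cold lowered Jak2 (log2 -0.41 ± 0.11, adjusted p = 0.0058), and in KO the value was 0.15 ± 0.11 (adjusted p = 0.4).

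Among 6 genes known to respond to growth hormone and STAT5, 2 were higher and 2 lower in KO in the cold, against 25.9% and 27.8% of all genes, with 1 each way at RT, against 19.3% and 21%. Igf1, the growth factor whose RNA growth hormone induces, had 34.5, 32.9 and 31.2 CPM in cold KO pools, against 19.5, 17.7 and 22.8 CPM in cold WT pools (log2 0.71 ± 0.21, adjusted p = 0.014, and 0.052 without WT cold replicate 2). Igfbp3, a carrier of that factor in blood, rose in the cold in both, by 2.03 ± 0.12 on the log2 scale in KO (adjusted p = 9.3e-08) and by 1.91 ± 0.13 in WT (adjusted p = 1.3e-08). Igfals, the third part of the same blood complex, fell in the cold in both, by 0.83 ± 0.22 in KO (adjusted p = 0.018, and 0.12 without KO at RT replicate 4) and by 1.94 ± 0.23 in WT (adjusted p = 4e-06). Socs2 and Cish, in the same class of genes, are described above.

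**Figure D3:**
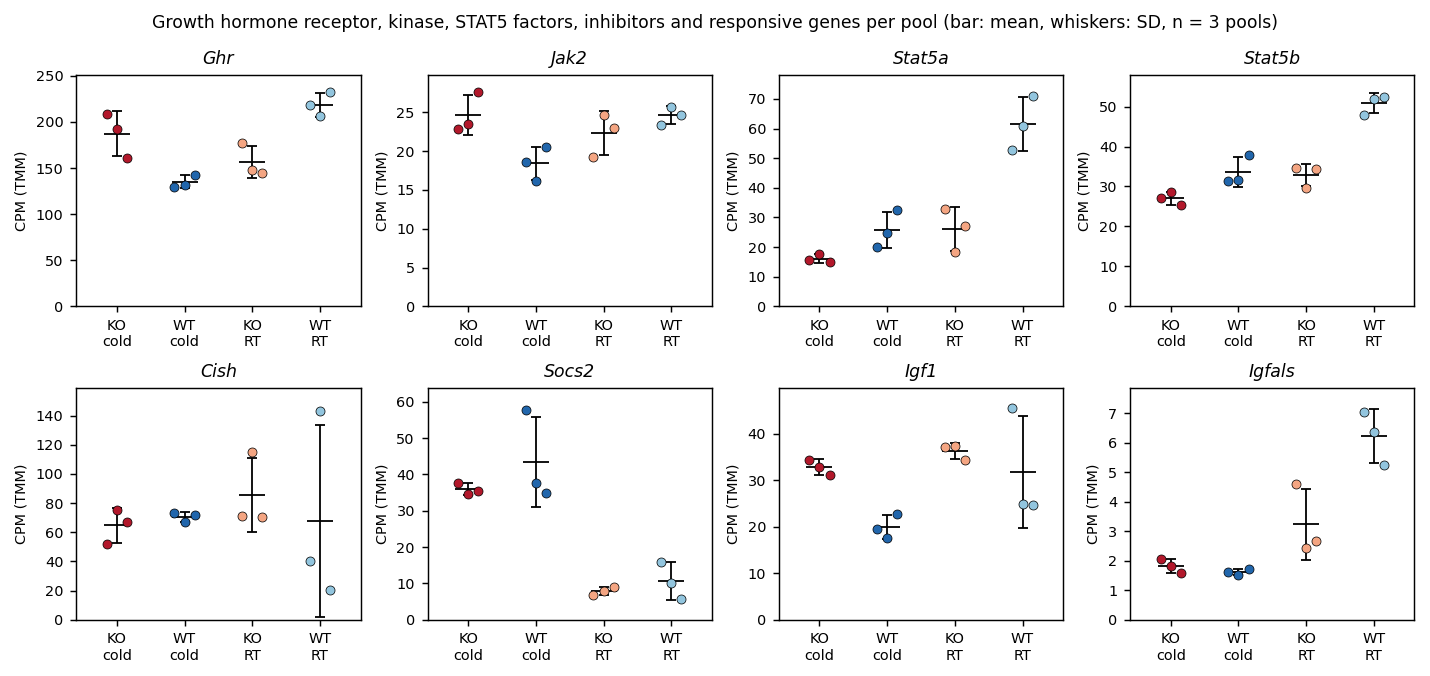
Levels in CPM (linear axes from 0) of the growth hormone receptor Ghr, its kinase Jak2, Stat5a and Stat5b, the inhibitors Cish and Socs2, and Igf1 and Igfals, in cold KO, cold WT, KO at RT and WT at RT. Points are pools, bars means and whiskers SD (n = 3). Stat5a, Stat5b and Igfals are highest in WT at RT, Socs2 is high in both cold groups, and 1 WT pool at RT lies far above the other 2 for Cish.

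Of 24 cytokine and hormone receptors, 22 were tested. In the cold 12 were higher and 4 lower in KO (25.9% and 27.8% of all genes), with a median log2 fold change of 0.44, and at RT 8 were higher and 4 lower (19.3% and 21% of all genes), with a median of -0.06 that became 0.15 with library totals alone. Csf2rb, the shared chain of the granulocyte-macrophage colony-stimulating factor and interleukin-5 receptors, was higher in KO in the cold (log2 1.77 ± 0.17, adjusted p = 6.9e-07) and at RT (log2 1.17 ± 0.16, adjusted p = 4.2e-05), as the macrophage markers were. Osmr, the oncostatin M receptor, was also higher in both (log2 0.73 ± 0.10, adjusted p = 1.9e-05, and 0.52 ± 0.10, adjusted p = 0.00073). Il6st, which encodes gp130 and is the receptor chain that Socs3 binds, passed in neither (log2 -0.02 ± 0.09, adjusted p = 0.9, and -0.04 ± 0.09, adjusted p = 0.74). Its partner Il6ra was lower in KO at RT (log2 -0.93 ± 0.14, adjusted p = 7.3e-05), with -0.08 ± 0.14 in the cold (adjusted p = 0.65). Insr, the insulin receptor, was lower in KO in the cold (log2 -0.75 ± 0.09, adjusted p = 3.2e-06).

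Only 5 of 14 ligands passed the filter on low counts. In the cold 3 of the 5 were higher in KO (25.9% of all genes), Il15 (log2 1.23 ± 0.26, adjusted p = 0.00088), Clcf1 (0.63 ± 0.19, adjusted p = 0.012) and Il11 (1.16 ± 0.42, adjusted p = 0.029). The call of Clcf1 ended without WT cold replicate 1 (adjusted p = 0.069), and that of Il11 without WT cold replicate 1 (0.13) or 2 (0.077) and without KO cold replicate 1 (0.06) or 2 (0.14). Il11 had 5 to 34 reads per library, and its lowest cold KO pool (0.432 CPM) lay below its highest cold WT pool (0.447 CPM). At RT 1 of the 5 was higher in KO (19.3% of all genes), Clcf1 (log2 0.86 ± 0.19, adjusted p = 0.0017). Of the 4 Janus kinases 3 were higher in KO in the cold (25.9% of all genes). Tyk2, which serves interferon and interleukin-12 receptors, gave 0.78 ± 0.11 (adjusted p = 3.1e-05), and Jak1 gave 0.27 ± 0.07 (adjusted p = 0.006). The cold lowered Tyk2 in WT (log2 -0.83 ± 0.11, adjusted p = 1.8e-05), with 0.06 ± 0.11 in KO (adjusted p = 0.75). Jak2 also fell in WT, as given above, and the tests of Jak1 and Jak3 there did not pass (adjusted p = 0.94 and 0.16). Of all genes 23.2% fell in WT in the cold. At RT the adjusted p of the kinases was 0.17 for Jak1, 0.31 for Jak2, 0.42 for Tyk2 and 0.45 for Jak3, with a median log2 fold change of -0.01. With library totals alone 2 passed upward, as 4739 of 15208 genes did.

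Stat6, the factor of interleukin-4 signalling, gave -0.24 ± 0.09 on the log2 scale for KO against WT in the cold (adjusted p = 0.025), a call that ended without WT cold replicate 2 (0.078) or 3 (0.17) and without KO cold replicate 1 (0.076) or 2 (0.057), and whose sign turned with library totals alone (log2 0.20, adjusted p = 0.1). Of 10 other inhibitors of the pathway, 2 were above WT and 3 below it in cold KO, close to the 25.9% and 27.8% of all genes, and 2 were above WT in KO at RT (19.3% of all genes). Ptpn6, a phosphatase of blood cells, was higher in KO in the cold (log2 1.38 ± 0.20, adjusted p = 2.3e-05) and at RT (log2 1.22 ± 0.19, adjusted p = 0.00012). Usp18, which restrains interferon signalling, was higher in the cold (log2 0.86 ± 0.19, adjusted p = 0.0011), and the phosphatase Ptpn2 was lower (log2 -0.55 ± 0.09, adjusted p = 6.1e-05, but -0.11 and adjusted p = 0.32 with library totals alone).

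The SOCS box joins its proteins to elongins B and C, a cullin and a RING protein. Of these 6 partners, cold KO had 4 below cold WT and KO at RT had 2 below WT at RT, while 4 rose in WT in the cold (27.8%, 21% and 23% of all genes in those directions), but with library totals alone each of these calls ended and 1 partner was higher in each KO comparison. In that setting 7881 of 15208 genes were higher in KO in the cold and 4739 at RT. Cul5, the cullin that most SOCS proteins use, had log2 values of -0.54 ± 0.08 in the cold (adjusted p = 5.5e-05) and -0.37 ± 0.08 at RT (adjusted p = 0.0022), against -0.10 and -0.15 with library totals alone (adjusted p = 0.46 and 0.29). Rbx1, a RING protein, had -0.48 ± 0.08 in the cold (adjusted p = 0.0001), against -0.04 with library totals alone (adjusted p = 0.79).

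Of 14 genes known to respond to STAT3, 5 were higher and 4 lower in KO in the cold (25.9% and 27.8% of all genes), and 8 were higher and 2 lower at RT (19.3% and 21%), with a median log2 fold change of 0.48 in both. Fos, an immediate early gene, was higher in KO in the cold (log2 1.75 ± 0.27, adjusted p = 6.1e-05) with 0.15 ± 0.26 at RT (adjusted p = 0.67). Junb was higher in both (log2 0.56 ± 0.15, adjusted p = 0.0045, and 0.86 ± 0.15, adjusted p = 0.00029). Pim1, a kinase induced by many cytokines, was lower in the cold (log2 -0.87 ± 0.12, adjusted p = 1.4e-05), and Icam1, an adhesion molecule, was higher at RT (log2 0.99 ± 0.15, adjusted p = 6.4e-05) with 0.25 ± 0.14 in the cold (adjusted p = 0.15).

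**Figure D4:**
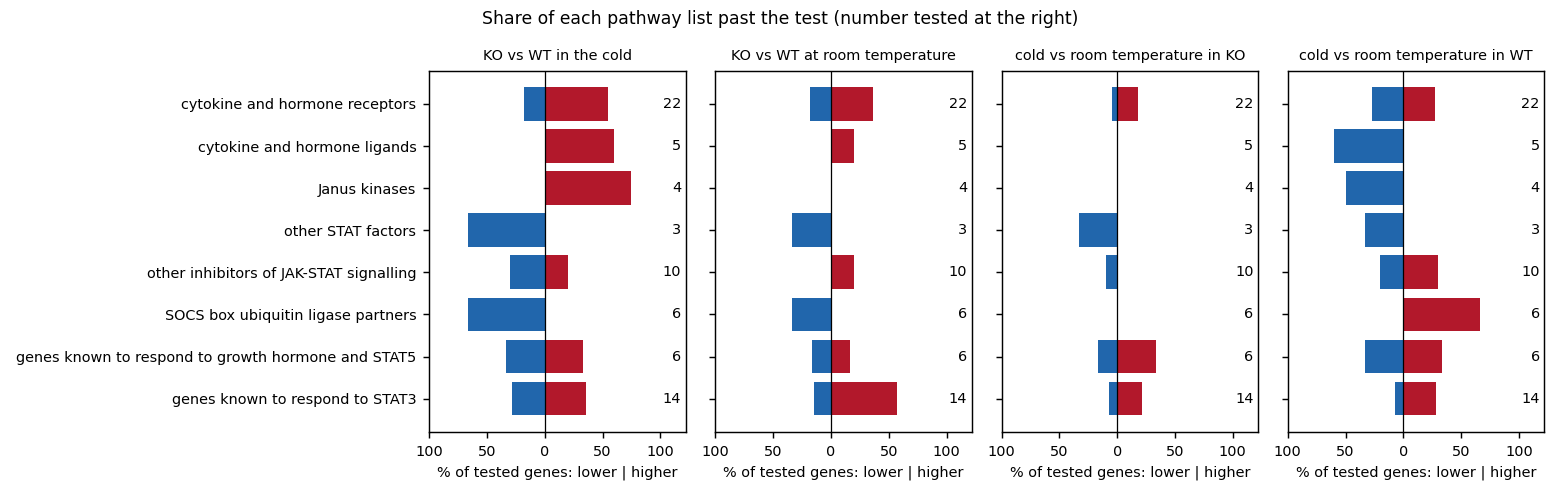
Percentage of tested genes of each pathway list that were higher (right of 0) or lower (left of 0) at an adjusted p under 0.05 in each comparison, with the number of genes tested at the right edge. Receptors and Janus kinases lie to the right in KO against WT in the cold, and the SOCS box partners to the left. With library totals alone the lower calls of these partners ended and 1 of 6 was higher, as were 7881 of 15208 genes.

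The genes most like 3 of the members in pattern over the 12 libraries were found by Pearson correlation of log2 CPM among 10273 genes for Socs2 and Cish and 10274 for Socs3. Socs2 was followed most closely by Rlim (0.97), Ccdc186 (0.959), Cpeb4 (0.954), Traf6 (0.948) and Sdc4 (0.944). Socs3 was followed by Mylip (0.97), Col28a1 (0.959), Abcb1b (0.957), Spaar (0.956) and Spns2 (0.951). No gene came as near to Cish, where the best were Zfp706 (0.696), Arpc4 (0.644), Vps4a (0.639), Itga10 (0.637) and Fam151b (0.627). These are descriptions over 12 libraries of 4 groups, which share the group differences.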

How the data were processed

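The authors deposited raw read counts per gene for each of 12 libraries, as HTSeq writes them, with reads counted on the reverse strand per the deposited files' names. STAR, HTSeq and the GRCm38 build are named in the submitters' processing notes, and versions and the library kit are not given in the sources used here. Lines without a gene were left out of library sizes (no feature 1.64% to 2.26%, ambiguous 1.07% to 1.37%, not unique 26.6% to 30.2% of counts). Identifiers were matched to GENCODE symbols on GRCm38 for 53274 of 53379 rows.

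Genes were filtered with filterByExpr in edgeR 4.0.16 (R 4.3.3), which left 15208 genes. Counts were scaled with TMM factors (0.798 to 1.18) and tested with the robust quasi-likelihood F test over all 12 libraries, 1 mean per group, with a common biological coefficient of variation of 13.6%. Adjusted p-values are 2-sided, Benjamini-Hochberg over all genes tested, with a threshold of 0.05. Errors after ± are SE, from the log2 fold change and its F. The prior count was 0.125. Since replicates are pools of 2 mice, p-values rest on the spread between pools, with the estimate of each gene moderated over the genes tested.

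The members and lists were chosen with earlier results of these data known. Named were all members and Cdk7, up to 4 genes per list with the smallest p in KO against WT, and Ghr, Jak2, Stat5a, Il6st and Igf1. Likeness was taken over genes whose log2 CPM averaged 1 or more. Cish, Stat3, Stat5a, Il6ra, Tyk2, Jak1, Ptpn6, Usp18, Cul5, Pim1, Icam1, Junb and Stat6 overlap another gene on the opposite strand, and Csf2rb, Clcf1 and Jak3 on their own, so their counts are uncertain as far as the counting splits reads there. The test of KO against WT in the cold was checked on simulated counts. There few genes changed, equally up and down, with the same spread for all genes. That check cannot speak for the scaling where many genes differ. Alternatives were other scalings and filters, DESeq2 1.42.0, limma 3.58.1 with voom, leaving out libraries, the replicate block and the 6 libraries compared. One gene of the pathway lists is not reported here.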

Additional observations from a re-analysis of the deposited data

Results flagged for a closer look

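The cold response of KO differed from that of WT, by edgeR's test of the difference itself, for 3 of the 9 members, where 23.5% of all genes differed. It also differed for 13 other named genes. List genes were named mainly for a small p in KO against WT, and the difference is made of those same comparisons. The number of these genes is therefore not set against the share of all genes. Values are the log2 cold response of KO minus that of WT. Among members, Stat3 was at 0.76, Socs4 at -0.63 and Socs7 at -0.43. Receptors gave 0.95 for Ghr, 0.85 for Il6ra and -0.47 for Insr, and the ligand Il15 gave 1.62. The kinases Tyk2 and Jak2 gave 0.89 and 0.56. The factor Stat6 gave -0.36, the phosphatase Ptpn2 -0.64 and the RING protein Rbx1 -0.32. Responsive genes gave 1.59 for Fos, 1.11 for Igfals, -0.74 for Icam1 and -0.8 for Pim1. Calls that ended with library totals alone were those of Socs4, Socs7, Insr, Stat6, Rbx1 and Icam1. Without the 2 libraries rich in muscle RNA, those of Socs7, Jak2, Stat6, Igfals and Icam1 ended as well. Leaving out 1 library in turn ended the call of Rbx1 in 11 of 12 fits (lowest and highest value -0.39 and -0.26), that of Socs7 in 8, that of Stat6 in 7 and that of Igfals in 2.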

How the results depend on the processing

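The counts of members called, 3 in KO against WT at RT and 8 in the cold, were both 5 with library totals alone. In that setting 6006 of 15208 genes were called at RT and 8954 in the cold. Leaving out 1 library in turn gave 3 to 4 at RT, 7 to 8 in the cold, 3 to 6 for the cold in WT (5 with all, 3 without WT cold replicate 1), 1 to 4 for the cold in KO (2 with all) and 2 to 4 for the difference between the cold responses (3 with all). Over 15381 to 15587 genes tested, calls were 4782 to 6102, 6900 to 8412, 5879 to 7258, 1171 to 2568 and 2579 to 4014 in the same order. The cold in KO gave 1 with library totals alone, without the 2 muscle-rich libraries and with only the 6 libraries compared, 4 with DESeq2 and 6 with voom. Of 14883 to 15386 genes tested, these fits called 1476, 1214, 1993, 2497 and 4155 in the same order. In KO it was 1 without WT at RT replicate 2, KO at RT replicate 4 or 6, or KO cold replicate 1 or 2, and 4 without KO at RT replicate 5.

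Over all genes, 6138 calls at RT became 3566 without the 2 muscle-rich libraries, and 3581 differences between responses became 1903. The 2258 calls for the cold in KO became 1476 with library totals alone, 1214 without the muscle-rich libraries, 4155 with voom and 1171 without KO cold replicate 1. With library totals alone, higher and lower calls were 7881 and 1073 in the cold against 3939 and 4222 with TMM, 4739 and 1267 at RT against 2940 and 3198, and 1826 and 4813 for the cold in WT against 3503 and 3531.

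Signs turned in KO against WT in the cold with library totals alone for Socs7 (0.17), Stat5b (0.12), Cish (0.31), Il6st (0.42), Stat6 (0.2), Ptpn11 (0.16), Rnf7 (0.11) and Cul2 (0.12), and at RT for Jak2 (0.07) and Il6st (0.18). The other turned signs belong to values near 0 or to Cish. Il6st was 0.01 without the filter, 0.05 with the strict filter, 0.02 with the 6 libraries and 0.01 with voom in the cold, 0.04 with voom at RT and -0.02 with voom for the difference, and leaving out libraries gave -0.04 to 0.01, -0.11 to 0.04 and -0.06 to 0.1. Cish ran over -0.1 to 1.51 at RT, -0.25 to 0.01 in the cold and -0.38 to 1.24 for the cold in WT (-0.18 with library totals alone). For the cold in WT, Socs1 ran over -0.24 to 0.16 (0.06 with voom) and Socs3 over -0.19 to 0.17 (-0.18 with library totals alone, -0.01 without the filter and with the strict one, -0.02 without the muscle-rich libraries, -0.08 with voom). Socs4 at RT ran over -0.1 to 0.1 (-0.01 with voom), Socs5 for the cold in KO over -0.03 to 0.05 (-0.01 without the muscle-rich libraries) and the difference of Socs6 over -0.02 to 0.11 (-0.02 without the muscle-rich libraries). The cause of these changes was not tested.

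Replicate numbers 1 to 3 are shared by 3 groups, and same-numbered pools did not deviate together (correlations -0.306 to 0.229), so they were not taken as pairs. With the replicate block 8 members were called in KO against WT in the cold, and 4 for the cold in WT, where Socs6 no longer passed (0.25, adjusted p = 0.063). Of 15208 genes, 7778 and 6672 were called in these fits. No such fit was possible for the comparisons with KO at RT, whose numbers are not shared. Socs1, at 5 to 36 reads per library, is the member that depth limits most.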
